A study of Mus musculus with 23 samples.

Results

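The genes described here are 37 members of the proteasome, chosen by name as the constitutive core subunits, the regulatory cap, the activators, an inhibitor and an assembly factor, out of 55401 genes in the count table. They comprise 7 alpha ring genes (Psma1 to Psma7), 7 beta ring genes (Psmb1 to Psmb7), 6 cap ATPases (Psmc1 to Psmc6), 11 other cap subunits (Psmd genes), 4 activators (Psme1 to Psme4), the inhibitor Psmf1 and the assembly factor Pomp. All 37 passed the filter on low counts. RNA-seq libraries had been made from macrophages grown from mouse bone marrow (BMDMs). Cells came from wild-type mice or from mice labelled knock-out for Selenow, the gene of selenoprotein W, without a statement of the part removed. They were collected untreated (0 h) or 4, 8 or 24 h after lipopolysaccharide (LPS, 100 ng/ml), the bacterial cell wall component that macrophages sense. Each of the 8 groups of genotype and time holds 3 libraries, except the labelled knock-out at 24 h with 2. No treatment or allele beyond these is given in the labels, and untreated libraries exist at 0 h only, so LPS and time in culture cannot be told apart. Nor do the labels name separate animals or cultures, so p-values measure the spread between libraries, which may be technical.

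The proteasome is the protease that degrades proteins tagged with ubiquitin. Its core is a barrel of stacked alpha and beta rings: the alpha rings gate the entrance, and the beta rings carry the proteolytic sites in the subunits encoded by Psmb5, Psmb6 and Psmb7. A cap with an ATPase ring and a lid binds, deubiquitinates and unfolds substrates, while ring-shaped activators that need no ATP can open the same gate. In cells exposed to inflammatory signals, inducible beta subunits replace the constitutive catalytic subunits in newly built cores, giving the immunoproteasome, which together with the Psme1 and Psme2 activator is known for making peptides for MHC class I.

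Libraries are numbered 1 to 23 by their titles. Each held between 39001456 and 41819953 counted fragments. Selenow stood at 106, 191, 260.4 and 181 CPM in libraries 13, 16, 19 and 22, which are labelled knock-out, against 103 to 327 CPM in the wild-type libraries, and at 39.4 to 135 CPM in the other 7 labelled knock-out libraries. Against the wild-type mean of the same time, libraries 13, 16, 19 and 22 held 88.0%, 98.1%, 82.4% and 102% of Selenow. Library 23 lay between, at 63.9%, and the remaining labelled knock-out libraries held 32.6% to 42.6%. Directions between genotypes are therefore given between labels. Libraries 3, 6, 9, 12, 14, 17, 20 and 23 (called the second library set, found in the data and not a group of the study) deviated together from their groups. Across 10415 genes, deviations of both such libraries of a time correlated with r = 0.765, 0.767, 0.774 and 0.707 (0, 4, 8 and 24 h, a description across genes). Macrophage markers summed to between 11708 and 27086 CPM in every library (7 of 7 genes detected). Lyz2 was the most abundant of them in every library. Within that list Mertk was called lower and Fcgr1 higher at 4 and 8 h than at 0 h in both genotypes. Neutrophil markers summed to 68.3 to 82.4 CPM in untreated wild-type and 114 to 117 CPM in untreated labelled knock-out libraries, and to 1.18 CPM or less and 5.15 CPM or less at 24 h (6 of 7 genes passed the filter). Ngp was the most abundant of them, and Ly6g was at 0.153 CPM or less in every library. Stromal markers summed to 17.9, 27, 66.8 and 33.3 CPM in libraries 14, 17, 20 and 23 and to 8.46 CPM or less in every other library, with Col1a1 the most abundant there. Dendritic cell markers summed to 0.627 to 1.30 CPM in untreated libraries, 16.7 to 33.0 CPM at 4 h, 6.74 to 25.6 CPM at 8 h and 1.98 to 9.91 CPM at 24 h (3 of 3 genes passed the filter). Most of that in each treated library was Xcr1, while Flt3 was at 0.841 CPM or less and Zbtb46 at 0.588 CPM or less in every library. T cell markers summed to 0.123 CPM or less and B cell markers to 2.50 CPM or less.

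Promoter sequences from RefSeq (build GRCm38.p6) were found for 31 of the 37 members, and 4 are shown because they belong to members that the results turn on. Psme2 and Psma6 had the highest changes of the members at 8 h in wild-type libraries. Psmb6 and Psmb5 are catalytic subunits, with their highest group means at 8 and 24 h. Each line gives the 250 bases before the transcription start, 5′ to 3′ on the gene's own strand, with matches to the motifs named below in capitals.
Psme2 (chr14:55591102-55591351, minus strand): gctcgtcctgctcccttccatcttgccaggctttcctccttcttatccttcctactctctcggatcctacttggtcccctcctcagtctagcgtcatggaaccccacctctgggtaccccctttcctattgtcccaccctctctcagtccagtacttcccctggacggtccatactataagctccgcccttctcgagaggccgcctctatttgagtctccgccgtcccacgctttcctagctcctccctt
Psma6 (chr12:55383972-55384221, plus strand): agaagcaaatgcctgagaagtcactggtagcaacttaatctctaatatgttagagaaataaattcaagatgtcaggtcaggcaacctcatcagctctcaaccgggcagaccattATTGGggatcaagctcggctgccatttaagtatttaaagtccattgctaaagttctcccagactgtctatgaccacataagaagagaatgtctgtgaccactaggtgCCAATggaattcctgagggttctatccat
Psmb6 (chr11:70525107-70525356, plus strand): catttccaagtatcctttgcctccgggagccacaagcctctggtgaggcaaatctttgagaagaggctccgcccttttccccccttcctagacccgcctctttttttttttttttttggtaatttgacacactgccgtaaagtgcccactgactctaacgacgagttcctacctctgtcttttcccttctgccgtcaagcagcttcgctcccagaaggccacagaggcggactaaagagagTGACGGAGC
Psmb5 (chr14:54617996-54618245, minus strand): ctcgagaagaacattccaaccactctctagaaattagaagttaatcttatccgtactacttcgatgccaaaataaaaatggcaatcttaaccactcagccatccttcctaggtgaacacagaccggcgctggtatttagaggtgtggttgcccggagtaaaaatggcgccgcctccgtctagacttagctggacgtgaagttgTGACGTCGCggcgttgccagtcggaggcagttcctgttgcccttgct
Capitals in the Psmb6 and Psmb5 promoters mark a match to TGACNNNGC, the core letters of the antioxidant response element, to which Nfe2l1 and Nfe2l2 proteins are known to bind. These lie 9 to 1 and 47 to 39 bases before the start. Psma6 has 2 matches to CCAAT, the box bound by NF-Y, with 1 on the opposite strand (ATTGG), and the Psme2 window has no match. Searched on both strands, TGACNNNGC was present in 4 of 34 member windows (11.8%; Psmb5, Psmb6, Psmc6 and Psmd12) and in 10.2% of all 32851 windows. For CCAAT the shares were 32.4% and 33.8%. The interferon-stimulated response element, searched as GAAA, any 2 bases and GAAA, occurred in 5.88% (Psmb3 and Psmd4) against 2.98%. No member window held TTCNNNGAA, the gamma-activated site (7.02% of all windows), or an NF-kB site, searched as GGGA, any 1 base and TTTCC (0.356%). A match is a run of letters and not a shown binding site. The letters of these motifs can overlap, and windows of genes with more than 1 start overlap in part.

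Proteasome genes rose broadly after LPS in wild-type macrophages. At 4 h, 30 of the 37 members were higher than at 0 h and none was lower (28.2% of all 18083 genes tested were called higher and 34.8% lower). The median log2 fold change of the members was 0.57, against -0.12 over all genes. By 8 h 32 members were higher (30.3% of all genes) and none lower (35.1%), with a median of 0.83 against -0.10, and at 24 h 32 were higher (27.8%) and none lower (27.3%), with a median of 0.67 against -0.00. Summed over the members, the level went from 2694 ± 264 CPM (± SD, n = 3) to 4163 ± 75.5, 5153 ± 129 and 4045 ± 134 CPM at 4, 8 and 24 h. A gene was called at an adjusted p under 0.05 in edgeR's quasi-likelihood test over all genes. No member was lower even at an unadjusted p under 0.05 in these 3 comparisons, and DESeq2 called 31, 35 and 32 higher (30.4%, 32.6% and 29.1% of all genes) and none lower. The 3 comparisons share the untreated libraries. In bulk RNA, a change in RNA per cell and a change in which cells are present cannot be told apart. The neutrophil marker sum was lower, and the dendritic cell marker sum higher, in every treated library than in every untreated library of its genotype, and the stromal sum was higher in every treated than in every untreated wild-type library. Most of the rise in the dendritic cell sum was Xcr1. Flt3 of that list was called lower at 4 and 24 h (-1.06 and -1.92 in wild-type, -1.33 and -1.82 in labelled knock-out libraries). The part of these marker lists in the changes of the members was not tested.

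The labelled knock-out libraries showed 29 members higher at 4 h (28% of all genes), 34 at 8 h (28.3%) and 35 at 24 h (22.6%), with medians of 0.55, 0.77 and 0.77 against -0.10, -0.09 and -0.00 over all genes. None was lower in edgeR's test (34.1%, 31.9% and 20.8% of all genes). At an unadjusted p under 0.05 only Psmd8 at 24 h was lower, and DESeq2 called Psmd8 lower at that time (22.1% of all genes) and no other member lower. The members summed to 2775 ± 214 CPM at 0 h, 4305 ± 124 CPM at 4 h and 5211 ± 73.4 CPM at 8 h (n = 3), and to 4527 ± 357 CPM at 24 h (n = 2). Within the first library set alone, the members called higher numbered 32, 36 and 35 at 4, 8 and 24 h in wild-type (32.0%, 33.8% and 31.9% of all genes) and also 32, 36 and 35 in the labelled knock-out (32.2%, 31.9% and 26.1%). At 24 h that set holds 1 labelled knock-out library (22), which was assumed to vary like the other groups. Untreated libraries 3 and 14, both of the second set, lay above the other libraries of their groups for 33 and 31 of the 37 members. No share over all genes is given, so these counts are not read as a trait of the members. When the fold had to exceed 1.5, 10, 22 and 11 members were called higher in wild-type (18.8%, 19.8% and 13.7% of all genes) and 11, 19 and 14 in the labelled knock-out (18.5%, 17.4% and 9.84%).

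**Figure D1:**
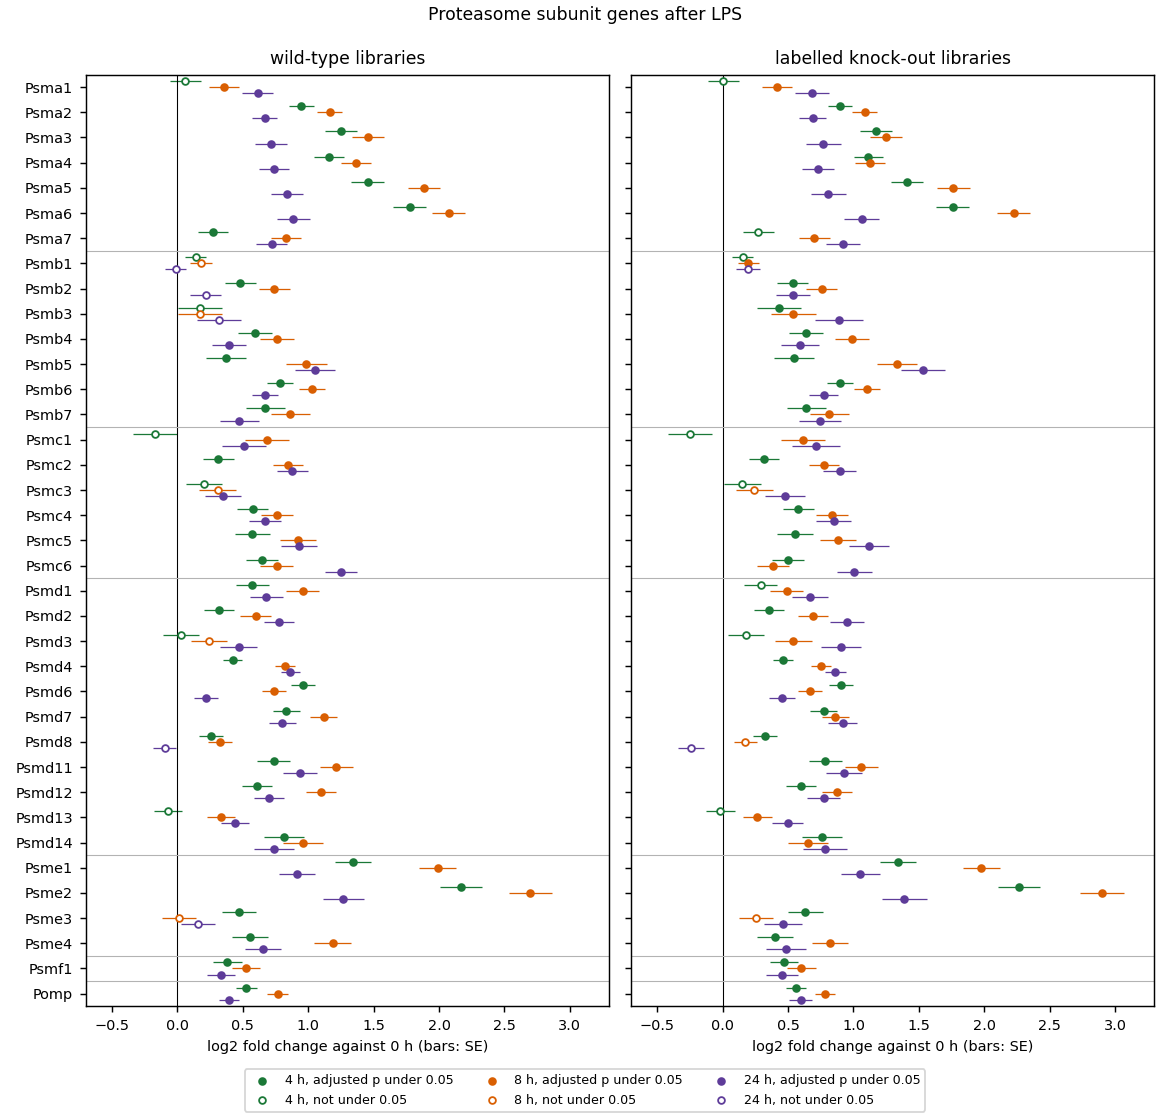
Log2 fold change (x axis, with SE as bars) of each of the 37 members after 4, 8 or 24 h of LPS against 0 h, in wild-type (left) and labelled knock-out libraries (right), with filled points where the adjusted p was under 0.05 and lines between role groups. Most points lie right of 0, Psme2 reaches 2.70 in wild-type and 2.90 in labelled knock-out libraries at 8 h, and Psmb1 and Psmd8 stay between -0.24 and 0.33.

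All 7 alpha ring genes rose by 8 h in both genotypes, with a median log2 fold change of 1.36 in wild-type and 1.12 in labelled knock-out libraries. At 4 h, 6 had risen in wild-type (median 1.16), the exception being Psma1 (0.06 ± 0.12, log2 fold change ± SE). Psma6 had the highest change of the ring at 8 h. It held 49.1, 51.3 and 55.6 CPM at 0 h, 192, 189 and 154 CPM at 4 h, 192, 226 and 239 CPM at 8 h and 89.1, 97.8 and 102 CPM at 24 h in wild-type libraries. Psma6 values in labelled knock-out libraries were 51.9, 62.8 and 44.1 CPM at 0 h, 187, 179.7 and 171 CPM at 4 h, 254, 249 and 239 CPM at 8 h and 103 and 119 CPM at 24 h. Every treated library lay above every untreated library of its genotype, and the 24 h libraries lay below those at 4 and 8 h. The change at 8 h was 2.07 ± 0.13 in wild-type and 2.22 ± 0.13 in labelled knock-out libraries, and 24 h against 8 h gave -1.19 ± 0.12 and -1.16 ± 0.14. Psma5 followed at 8 h with 1.89 ± 0.13, Psma3 with 1.46 ± 0.12, Psma4 with 1.36 ± 0.11 and Psma2 with 1.16 ± 0.09 in wild-type libraries, and these 4 also fell between 8 and 24 h in both genotypes. Psma1 had the lowest change of the ring. It held 75.9, 72.7 and 90.8 CPM at 0 h, 78.6, 78.9 and 92.3 CPM at 4 h, 99.7, 103 and 103 CPM at 8 h and 121, 130.2 and 114 CPM at 24 h in wild-type libraries. Psma1 values in labelled knock-out libraries were 78.2, 91.1 and 70.4 CPM at 0 h, 75.9, 93.7 and 71.2 CPM at 4 h, 109.7, 103 and 107 CPM at 8 h and 126 and 131 CPM at 24 h. Groups at 0 and 4 h overlapped, and those at 24 h lay above all earlier libraries of the same genotype. Its change at 24 h was 0.61 ± 0.12 in wild-type and 0.68 ± 0.13 in labelled knock-out libraries. Psma7 was likewise low at 4 h (0.27 ± 0.12 in wild-type, called there only), reached 0.72 ± 0.12 at 24 h and was not called from 8 to 24 h (-0.11 ± 0.12).

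The beta ring had lower median changes than the alpha ring, which is a description of the lists. At 8 h 5 of 7 members were higher in wild-type (median 0.76) and 7 of 7 in labelled knock-out libraries (median 0.81). Psmb6, which carries the caspase-like site, had the highest wild-type change. It held 103, 95 and 111 CPM at 0 h, 192, 176 and 166 CPM at 4 h, 207, 227 and 198 CPM at 8 h and 166, 148 and 178 CPM at 24 h in wild-type libraries. Psmb6 values in labelled knock-out libraries were 87.3, 98.7 and 88.4 CPM at 0 h, 166, 173 and 170.5 CPM at 4 h, 198, 185 and 207 CPM at 8 h and 142 and 171 CPM at 24 h. All treated libraries lay above all untreated ones in both genotypes, with 1.03 ± 0.10 and 1.10 ± 0.10 at 8 h. Psmb7, the trypsin-like site, changed by 0.86 ± 0.15 in wild-type, although 11.8% of its exon bases are shared with Nek6 on the other strand and counting ignored strand. Psmb5, the chymotrypsin-like site and a target of proteasome inhibitor drugs, had its highest group mean at 24 h. In both genotypes it was already called higher at 4 h and was not called from 8 to 24 h. Its wild-type group means were 53.8 ± 10.1, 69.6 ± 7.82, 107 ± 12.4 and 112 ± 0.994 CPM at 0, 4, 8 and 24 h (± SD, n = 3). The change at 24 h was 1.05 ± 0.15 in wild-type and 1.53 ± 0.17 in labelled knock-out libraries. Mir686, a small gene on the same strand, lies over 12.1% of its exon bases.

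Psmb1, a structural beta subunit, had the smallest range of all members, 1.20-fold between its lowest and highest group mean. It held 108, 102 and 102 CPM at 0 h, 112, 108 and 124 CPM at 4 h, 113, 113 and 128 CPM at 8 h and 98.8, 108 and 103 CPM at 24 h in wild-type libraries. Psmb1 values in labelled knock-out libraries were 102, 98.2 and 95.5 CPM at 0 h, 113, 115 and 101.4 CPM at 4 h, 111, 118 and 110.0 CPM at 8 h and 109.7 and 116 CPM at 24 h. The 8 h libraries lay above the 0 h libraries by a small margin in both genotypes, most other groups overlapped, and among the comparisons with 0 h only the labelled knock-out at 8 h was called (0.20 ± 0.08). Psmb3 was equally low at 8 h in wild-type (0.18 ± 0.17), with 48.2, 48.1 and 68.9 CPM at 0 h, 61.1, 52.6 and 72.3 CPM at 4 h, 59.2, 64.1 and 63.3 CPM at 8 h and 72.5, 73.0 and 60.7 CPM at 24 h in wild-type libraries. Psmb3 values in labelled knock-out libraries were 45.5, 56.2 and 37.1 CPM at 0 h, 58.9, 76.6 and 51.6 CPM at 4 h, 68.4, 70.0 and 63.7 CPM at 8 h and 84.7 and 86.6 CPM at 24 h. Untreated library 3 lay above all 3 wild-type libraries at 8 h. In labelled knock-out libraries Psmb3 was called at all 3 times, up to 0.89 ± 0.19 at 24 h. Psmb2, another structural subunit, changed by 0.74 ± 0.12 at 8 h in wild-type and Psmb4, described with the genotypes, by 0.76 ± 0.13.

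The inducible catalytic subunits, which are no members, had larger fold changes at 8 h than the constitutive subunits they replace. Log2 fold changes at 8 h in wild-type were 2.13 ± 0.15 for Psmb8, 2.43 ± 0.19 for Psmb9 and 2.80 ± 0.13 for Psmb10. All 3 were called higher at every time in both genotypes and lower at 24 h than at 8 h. Per kilobase of exon, the ratio of Psmb8 to Psmb5 in wild-type libraries was 0.469 ± 0.0104, 1.22 ± 0.174, 1.04 ± 0.0780 and 0.558 ± 0.105 (± SD, n = 3) in order of time. The ratio of Psmb9 to Psmb6 went from 0.161 ± 0.00744 to 0.428 ± 0.0506 at 8 h and 0.221 ± 0.0647 at 24 h. For Psmb10 over Psmb7 it was 2.44 ± 0.325, 9.20 ± 0.833 and 3.72 ± 0.429 at those times. Libraries at 4 and 8 h lay above all untreated libraries for each of the 3 ratios in both genotypes. Labelled knock-out means at 8 h were 1.01 ± 0.0354, 0.468 ± 0.0788 and 10.6 ± 0.170 for the 3 pairs in that order. The ratios carry the annotated exonic lengths of both genes, so they show a course over time more safely than an amount.

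**Figure D2:**
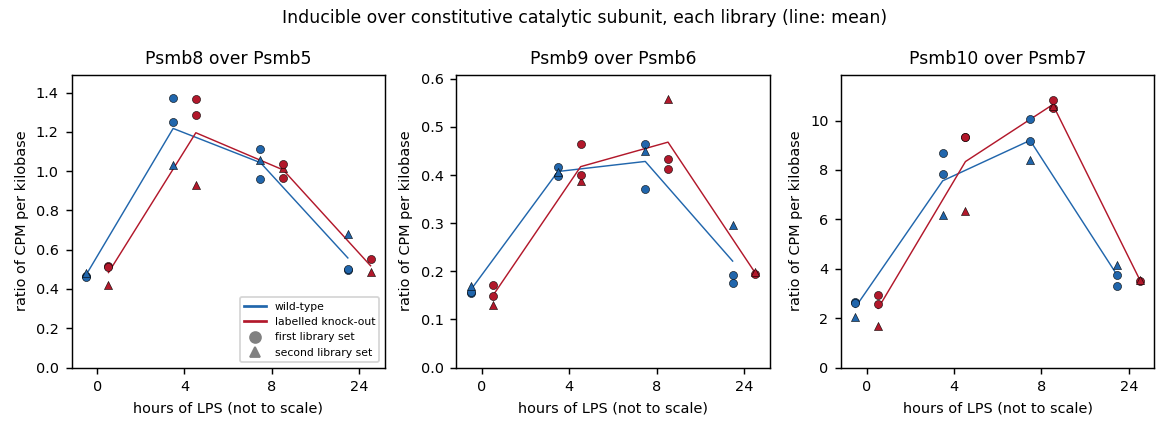
Ratio of CPM per kilobase of exon (y axis) of each inducible catalytic subunit to its constitutive counterpart, against hours of LPS (x axis, not to scale), 1 point per library, coloured by genotype and shaped by library set, with lines through the means. All 3 ratios are highest at 4 or 8 h and come back towards the untreated level at 24 h.

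The ATPases of the cap, which unfold substrates and open the gate, rose in 4 of 6 cases at 4 h, 5 at 8 h and 6 at 24 h in wild-type, with medians of 0.44, 0.76 and 0.77. Labelled knock-out libraries gave the same counts, with medians of 0.41, 0.69 and 0.87. Psmc5 had the highest change at 8 h. It held 41.7, 40.9 and 54.9 CPM at 0 h, 61.7, 69.8 and 73.3 CPM at 4 h, 82.5, 94.8 and 83.4 CPM at 8 h and 87.5, 93.3 and 81.5 CPM at 24 h in wild-type libraries. Psmc5 values in labelled knock-out libraries were 42.4, 58.9 and 42.1 CPM at 0 h, 65.1, 79.3 and 65.8 CPM at 4 h, 90.1, 81.5 and 92.7 CPM at 8 h and 100.2 and 108 CPM at 24 h. All treated libraries lay above all untreated ones in both genotypes, and libraries 3 and 14 were the highest untreated ones. The changes at 8 and 24 h in wild-type were 0.92 ± 0.14 and 0.93 ± 0.14. Psmc3 had the lowest change at 8 h. It held 86.3, 79.1 and 96.0 CPM at 0 h, 82.3, 97.5 and 121 CPM at 4 h, 99, 109 and 116 CPM at 8 h and 110.1, 114 and 109 CPM at 24 h in wild-type libraries. Psmc3 values in labelled knock-out libraries were 90.1, 111 and 86.9 CPM at 0 h, 97.7, 128 and 93.9 CPM at 4 h, 117, 113 and 111 CPM at 8 h and 123 and 144 CPM at 24 h. Groups at 0 and 4 h overlapped in both genotypes, the 8 h libraries lay just above the untreated ones, and only 24 h was called (0.35 ± 0.14 and 0.48 ± 0.15). Exons of Slc39a13 overlap 8.25% of its bases on the other strand.

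Psmc6 was the member called higher at 24 h than at 8 h in both genotypes, by 0.49 ± 0.12 in wild-type and 0.62 ± 0.13 in labelled knock-out libraries. Its wild-type group means were 37.5 ± 3.16, 58.6 ± 8.81, 63.4 ± 3.96 and 89.1 ± 8.41 CPM. Psmc1 was not called at 4 h against 0 h, with -0.17 ± 0.17 in wild-type and -0.25 ± 0.17 in labelled knock-out libraries, and rose from 4 to 8 h by 0.85 ± 0.17 and 0.86 ± 0.17. In the first library set alone it was called lower at 4 h in both genotypes (-0.30 and -0.29), whereas second-set libraries 6 and 17 held 89.8 and 103 CPM at 4 h against 58.5 to 77.3 CPM in the other 4.

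Of the 11 other cap subunits, 9 rose at 4 h, 10 at 8 h and 10 at 24 h in wild-type (medians 0.57, 0.82 and 0.70), and 8, 10 and 10 in labelled knock-out libraries (0.46, 0.67 and 0.78). Psmd11, a lid subunit, had the highest change among them at 8 h. It held 55.1, 54.4 and 75.6 CPM at 0 h, 105, 107 and 96.4 CPM at 4 h, 144, 151 and 134 CPM at 8 h and 112, 111 and 132 CPM at 24 h in wild-type libraries. Psmd11 values in labelled knock-out libraries were 57.7, 69.3 and 55.4 CPM at 0 h, 97.9, 105 and 111 CPM at 4 h, 122, 126 and 132 CPM at 8 h and 104 and 127 CPM at 24 h. All treated libraries lay above all untreated ones in both genotypes, with 1.21 ± 0.13 and 1.06 ± 0.13 at 8 h. Psmd7 and Psmd12, also of the lid, were next in wild-type, with 1.12 ± 0.10 and 1.10 ± 0.12. Psmd14, the deubiquitinating enzyme of the lid, changed by 0.96 ± 0.15, Psmd1, a large scaffold subunit of the base, by 0.96 ± 0.13 and Psmd4, a ubiquitin receptor, by 0.82 ± 0.08. Psmd6 was highest at 4 h (0.96 ± 0.09 in wild-type) and had fallen by 24 h (-0.52 ± 0.09 against 8 h). Psmd3, another lid subunit, had the lowest change among them at 8 h in wild-type libraries. It held 82.7, 81.0 and 121 CPM at 0 h, 101.4, 90.0 and 98.6 CPM at 4 h, 102, 118 and 117 CPM at 8 h and 138, 134 and 121 CPM at 24 h in wild-type libraries. Psmd3 values in labelled knock-out libraries were 79.2, 99.5 and 77.9 CPM at 0 h, 87.5, 110.3 and 93.1 CPM at 4 h, 128, 118 and 127 CPM at 8 h and 154 and 166 CPM at 24 h. Untreated library 3 lay above all wild-type libraries at 8 h, and the change at 8 h was 0.24 ± 0.14, against 0.54 ± 0.14 in labelled knock-out libraries, where it was called. At 24 h Psmd3 was called higher in both genotypes (0.47 ± 0.14 and 0.90 ± 0.15). Psmd2, the other large scaffold subunit, and Psmd13, of the lid, also had their highest wild-type mean at 24 h, with 0.78 ± 0.12 and 0.44 ± 0.11 against 0 h.

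Psmd8 had the highest level per kilobase of the members in untreated wild-type cells and changed little. Its wild-type means were 278 ± 26.6, 333 ± 6.71, 349 ± 19.2 and 260.1 ± 7.63 CPM. It rose at 4 h (0.26 ± 0.09 in wild-type, a call lost with upper-quartile scaling and without the filter on low counts), fell from 8 to 24 h in both genotypes (-0.42 ± 0.09 and -0.41 ± 0.10) and was not called at 24 h against 0 h (-0.10 ± 0.09 and -0.24 ± 0.10). With a term for the library set it was called lower at 24 h in both genotypes (-0.18 and -0.33). In untreated wild-type cells the levels per kilobase of exon were 91.0 CPM for Psmd8, 60.9 for Psmb2, 59.8 for Psmb5, 55.2 for Psmb6 and 43.3 for Psme1, while Psmf1 was lowest at 4.36. At 8 h Psme2, Psma6 and Psme1 stood highest among the members, at 203, 178 and 172 CPM per kilobase. These levels use the union of annotated exons, so a gene with a long rarely used exon appears lower.

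Activators gave the highest and the lowest change of all members at 8 h in wild-type libraries. In labelled knock-out libraries the highest was also Psme2 and the lowest was Psmd8. Psme2 and Psme1 encode the subunits of the ring that opens the core without ATP and is known as interferon-inducible. Psme2 had the largest range of the members, 7.46-fold between group means. It held 50.7, 49.0 and 65.9 CPM at 0 h, 259.9, 257 and 226 CPM at 4 h, 361, 382 and 331 CPM at 8 h and 115, 112 and 172 CPM at 24 h in wild-type libraries. Psme2 values in labelled knock-out libraries were 55.7, 53.2 and 51.1 CPM at 0 h, 279, 235 and 255 CPM at 4 h, 404, 396 and 393 CPM at 8 h and 117 and 162 CPM at 24 h. All treated libraries lay above the untreated ones, and libraries 12 and 23, both of the second set, were the highest at 24 h. Log2 fold changes of Psme2 were 2.16 ± 0.16, 2.70 ± 0.16 and 1.27 ± 0.16 in wild-type and 2.26 ± 0.16, 2.90 ± 0.17 and 1.39 ± 0.17 in labelled knock-out libraries at 4, 8 and 24 h. Psme2b, a near copy, holds 87598 fragments over all libraries, and fragments that could come from either gene may be lost or split, so the level of Psme2 is uncertain. Psme1 held 105, 86.2 and 95.4 CPM at 0 h, 244, 263 and 219 CPM at 4 h, 361, 420.1 and 356 CPM at 8 h and 153, 169 and 219 CPM at 24 h in wild-type libraries. Psme1 values in labelled knock-out libraries were 94.2, 88.1 and 97.1 CPM at 0 h, 270.4, 204 and 234 CPM at 4 h, 363, 360.5 and 377 CPM at 8 h and 171 and 215 CPM at 24 h. Treated libraries again lay above untreated ones, libraries 12 and 23 were the highest at 24 h, and the change was 1.99 ± 0.14 at 8 h in wild-type and 1.98 ± 0.14 in labelled knock-out libraries. The pair lies on chromosome 14, with 5.9 kb between the genes.

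Psme4, an activator found in the nucleus, rose with a peak at 8 h. It held 89.9, 89.4 and 91.2 CPM at 0 h, 133, 151 and 115 CPM at 4 h, 215, 183 and 218 CPM at 8 h and 124, 128 and 175 CPM at 24 h in wild-type libraries. Psme4 values in labelled knock-out libraries were 97.9, 87.8 and 95.9 CPM at 0 h, 133, 99.4 and 139 CPM at 4 h, 162, 164 and 171 CPM at 8 h and 127 and 137 CPM at 24 h. Treated libraries lay above untreated ones in both genotypes, and the 8 h change was 1.19 ± 0.14 in wild-type and 0.82 ± 0.14 in labelled knock-out libraries. Psme3, the nuclear activator related to Psme1 and Psme2, was highest at 4 h. It held 82.5, 81.0 and 110.4 CPM at 0 h, 132, 128 and 120.3 CPM at 4 h, 89.4, 88.9 and 98.0 CPM at 8 h and 107, 114 and 85.0 CPM at 24 h in wild-type libraries. Psme3 values in labelled knock-out libraries were 74.0, 96.2 and 70.3 CPM at 0 h, 122, 122 and 129 CPM at 4 h, 98.6, 91.6 and 96.3 CPM at 8 h and 113 and 107 CPM at 24 h. The 4 h libraries lay above all 0 h and 8 h libraries of the same genotype. Psme3 rose at 4 h (0.47 ± 0.13 and 0.63 ± 0.13), fell from 4 to 8 h (-0.46 ± 0.13 and -0.38 ± 0.13) and at 8 h was 0.01 ± 0.13 from the untreated wild-type level.

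The inhibitor and the assembly factor rose moderately. Psmf1, which can block the core and its activation in vitro, held 28, 27.7 and 28.5 CPM at 0 h, 38.8, 31.4 and 39.6 CPM at 4 h, 40.2, 35.4 and 45.7 CPM at 8 h and 36.8, 33.3 and 36.1 CPM at 24 h in wild-type libraries. Psmf1 values in labelled knock-out libraries were 23.9, 26 and 24.3 CPM at 0 h, 33.7, 36.1 and 32.8 CPM at 4 h, 34.5, 42.6 and 35.4 CPM at 8 h and 32.1 and 35.6 CPM at 24 h. Treated libraries lay above untreated ones, with 0.53 ± 0.11 and 0.60 ± 0.11 at 8 h. Pomp, which helps to build the core on its alpha ring, held 70.3, 68.3 and 70.4 CPM at 0 h, 100.6, 99.6 and 100.9 CPM at 4 h, 120.1, 123 and 112 CPM at 8 h and 88.7, 89.7 and 96.4 CPM at 24 h in wild-type libraries. Pomp values in labelled knock-out libraries were 69.3, 72.9 and 60.5 CPM at 0 h, 105, 97.2 and 97.2 CPM at 4 h, 120.4, 114 and 114 CPM at 8 h and 99.1 and 105 CPM at 24 h. Every treated library was again above every untreated library. Changes of Pomp were 0.53 ± 0.08, 0.77 ± 0.08 and 0.39 ± 0.08 at 4, 8 and 24 h in wild-type.

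**Figure D3:**
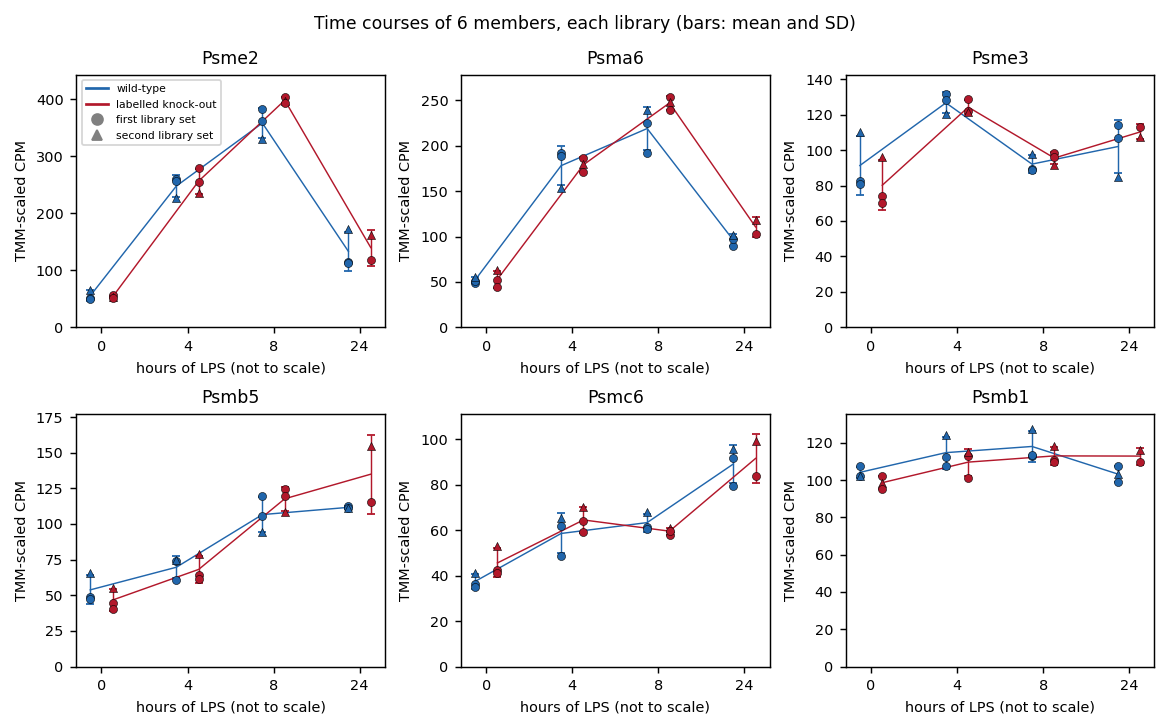
TMM-scaled CPM (y axis, from 0) of 6 members in each library against hours of LPS (x axis, not to scale), coloured by genotype and shaped by library set, with lines through group means and bars for the mean and SD. Psme2 and Psma6 peak at 8 h, Psme3 at 4 h, Psmb5 and Psmc6 are highest at 24 h, and Psmb1 varies 1.20-fold between group means.

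The members did not share a single time course. In wild-type libraries the highest group mean fell at 8 h for 24 members, at 24 h for 11 and at 4 h for 2 (Psmd6 and Psme3), and in labelled knock-out libraries at 8 h for 17, at 24 h for 17 and at 4 h for 3 (with Psmd8). The time was the same in both genotypes for 30 of 37. No member was highest at 0 h. These times rank group means, and no share over all genes is given, so they do not set the members apart from other genes. Of the members highest at 24 h, only Psmc6 was called higher than at 8 h. From 4 to 8 h, 17 members rose in wild-type (24.0% of all genes) and Psme3 fell (22.8% of all genes were called lower). In labelled knock-out libraries 16 rose (24.4%) while Psmd6 and Psme3 fell (22.8%). Median changes were 0.26 and 0.25, against -0.02 and 0.00 over all genes.

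From 8 to 24 h, 17 members fell in wild-type (21.9% of all genes) and Psmc6 rose (23.1%). The falls covered 5 of 7 alpha genes, 4 of 7 beta genes, 4 of 11 Psmd genes, Psme1, Psme2, Psme4 and Pomp, and none of the 6 ATPases. In labelled knock-out libraries 10 fell (16.8%) and Psmc6 rose (17.9%), and all 10 of these were also called lower in wild-type. The medians were -0.28 and -0.00, against 0.03 and 0.02 over all genes. Among ATPases no unadjusted p was under 0.05 in the lower direction in wild-type or labelled knock-out libraries, DESeq2 called none lower, and Psmc6 was the sole call. Library 22 lay below library 23 for 34 of the 37 members at 24 h, without a share over all genes to set beside it. Without library 22 the labelled knock-out count from 8 to 24 h went from 11 to 6 members, and without libraries 13, 16, 19 and 22 to 5. From 4 to 8 h it went from 18 to 11 without library 18 or 21 and to 7 without libraries 13, 16, 19 and 22. No share of all genes is given for these reduced fits, so the lower counts do not set the members apart. Where library 22 was left out, only library 23 remained of the labelled knock-out at 24 h. When the fold had to exceed 1.5, no member was called from 4 to 8 h in either genotype (19.7% and 20.5% of all genes in either direction) and 4 from 8 to 24 h in each (17.2% and 11.7%).

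Between genotypes, 1 member of 37 was called at each time, and it was Psmb4 each time. The shares of all genes called were 1.52%, 1.24%, 2.20% and 1.19% at 0, 4, 8 and 24 h, and 0.653%, 0.503%, 0.796% and 0.608% of all genes were higher in libraries labelled knock-out. A count of 1 of 37 is near these shares, so it describes a single gene and not the list. Psmb4 encodes a structural beta subunit and lies on chromosome 3 from 94884093 to 94886961 (GRCm38, minus strand). It held 77.7, 74.3 and 94.6 CPM at 0 h, 128, 113 and 131 CPM at 4 h, 139.7, 139 and 139 CPM at 8 h and 109, 104 and 111 CPM at 24 h in wild-type libraries. Psmb4 values in labelled knock-out libraries were 161, 129 and 142 CPM at 0 h, 239, 195 and 235 CPM at 4 h, 307, 236 and 311 CPM at 8 h and 243 and 190.0 CPM at 24 h. At every time all libraries labelled knock-out lay above all wild-type libraries, at 1.56 to 2.24 times the wild-type mean of that time. Log2 differences between libraries labelled knock-out and wild-type were 0.81 ± 0.13, 0.85 ± 0.13, 1.03 ± 0.13 and 1.0 ± 0.14, with adjusted p of 0.00162, 0.000651, 6.66e-05 and 0.000375 in edgeR's quasi-likelihood test. Libraries 13, 16, 19 and 22, where Selenow was near the wild-type level, held 1.96, 1.93, 2.21 and 2.24 times the wild-type mean of Psmb4. The second-set libraries 14, 17, 20 and 23 were the lowest of their groups, at 1.56, 1.58, 1.70 and 1.76 times. Within the first library set the 4 differences were 1.0, 0.99, 1.14 and 1.17, all called, with library 22 as the only labelled knock-out library at 24 h.

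The Psmb4 call depended on the fit at 0 and 24 h. In a fit of only the groups compared, the 0 h difference was 0.81 (edgeR adjusted p 0.063) and the 24 h difference 0.99 (edgeR adjusted p 0.0982). Without libraries 13, 16, 19 and 22 it was 0.81 at 24 h, where 1 labelled knock-out library remained (edgeR adjusted p 0.0522). When the fold had to exceed 1.5, it was called at 8 h alone (adjusted p 0.921, 0.567, 0.0337 and 0.139 by edgeR's glmTreat at the 4 times). Over 32 settings the adjusted p ranged from 7.14e-07 to 0.921 at 0 h and from 2.45e-08 to 0.139 at 24 h, and the difference from 0.72 to 1.0 and from 0.81 to 1.17. Psmb4 itself responded to LPS in both genotypes, by 0.76 ± 0.13 in wild-type and 0.99 ± 0.13 in labelled knock-out libraries at 8 h. The direction between genotypes was the same under RLE and upper-quartile scaling at each time.

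Averaged over the 4 times, 2 members were higher in libraries labelled knock-out and none was lower (3.13% and 3.14% of all genes). Psmb4 differed by 0.92 ± 0.07 (edgeR adjusted p 9.17e-09) and Psmc1 by 0.38 ± 0.09 (edgeR adjusted p 0.0114). Psmc1, an ATPase subunit on chromosome 12, held 81.6, 66.9 and 84.4 CPM at 0 h, 58.5, 58.8 and 89.8 CPM at 4 h, 132, 120.5 and 121 CPM at 8 h and 102, 99 and 131 CPM at 24 h in wild-type libraries. Psmc1 values in labelled knock-out libraries were 90.9, 112 and 97.0 CPM at 0 h, 77.3, 103 and 72.4 CPM at 4 h, 161, 136 and 161 CPM at 8 h and 151 and 177 CPM at 24 h. Its libraries did not overlap between labels at 0, 8 and 24 h and overlapped at 4 h, while no single time was called. With the library set as a term Psmc1 was called higher at all 4 times (edgeR adjusted p 0.00477, 0.03, 0.0149 and 0.000474 at 0, 4, 8 and 24 h). In the first set alone, with 1 labelled knock-out library at 24 h, it was also called at each (edgeR adjusted p 0.033, 0.0393, 0.0183 and 0.00437). The sets were found in the data, so these p-values may be too small. Over 31 settings its averaged difference ranged from 0.33 to 0.43, and it was not called when the fold had to exceed 1.5. The median difference over the 37 members was 0.04. Of the 35 members not called, differences ranged from -0.12 ± 0.07 (Psme4) to 0.14 ± 0.07 (Psmc3). Neutrophil marker sums, given above, also differed between labels. Stromal marker sums of libraries 13, 16, 19 and 22 lay within the wild-type range of their time. Those of libraries 14, 15, 17, 18, 20, 21 and 23 lay above it, and most of each of these sums was Col1a1 and Col1a2. Dcn of that list went the other way at 8 and 24 h. It held 0.618 to 1.52 CPM in labelled knock-out against 1.53 to 2.32 CPM in wild-type libraries at 8 h. At 24 h it held 2.20 and 3.16 CPM against 3.62 to 5.40 CPM. The part of either marker list in these differences was not tested. No member was lower at an unadjusted p under 0.05 in the average, and DESeq2 called 3 members higher (4.27% of all genes) and none lower.

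**Figure D4:**
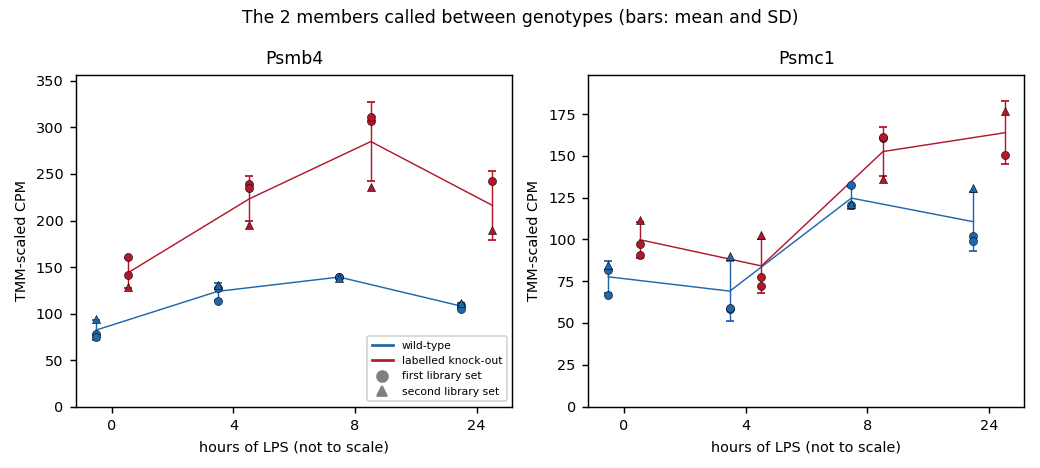
TMM-scaled CPM (y axis, from 0) of Psmb4 and Psmc1 in each library against hours of LPS (x axis, not to scale), with bars for the mean and SD. Psmb4 is higher in every library labelled knock-out (red) than in every wild-type library (blue) of the same time, and Psmc1 overlaps at 4 h.

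The change after LPS was not shown to differ between genotypes for any member. The interaction of genotype and LPS called 0 of 37 members at 4, 8 and 24 h with edgeR (0.0442%, 0.0442% and 0% of all genes), and 0 with DESeq2. At an unadjusted p under 0.05 there were 0, 2 and 3 members. No share of all genes at that level is given. These counts and the estimates below are therefore not read as a result about the members. Psmd1 (-0.47 ± 0.18) and Psmc6 (-0.37 ± 0.17) had negative estimates at 8 h. For Psmb3 (0.57 ± 0.25), Psmb5 (0.48 ± 0.23) and Psmd3 (0.44 ± 0.21) the estimate at 24 h was positive. With the library set as a term, 3 members were called at 8 h, all lower (Psmd1, Psmc6 and Psme4, -0.48, -0.37 and -0.37), and 5 at 24 h, all higher (Psmb3, Psmb5, Psmd3, Psme3 and Psmb2, 0.59, 0.43, 0.43, 0.35 and 0.32). That term came from the data, so its p-values may be too small (12.7% and 16.4% of all genes were called with it).

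Among other proteasome factors the changes were mixed. Of 8 measured cap and bound factors, 5 were higher and none lower at 8 h in wild-type (30.3% and 35.1% of all genes). At 4 h 3 were higher and Psmd5 was lower in wild-type (28.2% and 34.8% of all genes). In labelled knock-out libraries 4 were higher at 4 h and 5 at 8 h, with Uchl5 lower at both times and Psmd5 lower at 4 h. In wild-type libraries Psmd10, an assembly chaperone of the cap also known as gankyrin, changed by 2.13 ± 0.20 at 8 h. Ecpas, a proteasome-binding scaffold, changed by 1.29 ± 0.09 at 4 h. At 8 h Sem1 changed by 0.80 ± 0.10 and the ubiquitin receptor Adrm1 by 0.54 ± 0.12, and Adrm1 was not called at 4 h. Of the 4 chaperones that start core assembly, 3 were lower in wild-type libraries at 8 h (35.1% of all genes). Psmg2 (-1.51 ± 0.27), Psmg4 (-0.88 ± 0.17) and Psmg1 (-0.83 ± 0.29) fell and Psmg3 was not called (-0.27 ± 0.13). Levels were low, and second-set library 3 raised the untreated means of Psmg1 and Psmg2. Psmg1 held 6.91, 7.53 and 12.3 CPM in libraries 1, 2 and 3, and Psmg2 held 6.10, 6.42 and 10.7 CPM. At 8 h Psmg1 held 4.99 to 5.06 CPM and Psmg2 2.47 to 3.12 CPM. In labelled knock-out libraries Psmg2 and Psmg4 were also lower at 8 h (-0.96 ± 0.27 and -0.50 ± 0.16, with 31.9% of all genes lower). There Psmg3 was higher at 4 and 24 h (0.40 ± 0.13 and 0.58 ± 0.15). None of the 4 was lower at 24 h in that genotype (20.8% of all genes). At 4 and 24 h in wild-type only Psmg4 was lower (-0.38 ± 0.16 and -0.42 ± 0.16, with 34.8% and 27.3% of all genes lower). From 8 to 24 h, 3 of the 4 rose in wild-type and 2 in labelled knock-out libraries (23.1% and 17.9% of all genes). Counts out of 4 describe those genes and not a list. The core subunit genes of other tissues were low, with Psma8 (testis) at 1.04 CPM or less and Psmb11 (thymus) at 0.0567 CPM or less in every library.

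Regulators of proteasome genes and the ubiquitin supply also changed. Nfe2l1, whose protein induces proteasome genes when the proteasome is impaired, rose at every time, by 0.64 ± 0.14, 1.01 ± 0.14 and 1.68 ± 0.14 in wild-type. Ddi2, the protease that activates it, was lower at 4 h (-1.03 ± 0.11) and not called at 8 h (-0.01 ± 0.11). Keap1, the adaptor that marks the Nfe2l2 protein for degradation, changed by 1.11 ± 0.13 at 8 h, and Nfe2l2 by 0.54 ± 0.14. At 24 h Nfe2l2 was lower in wild-type (-0.43 ± 0.14). Nfe2l2 was not called against 0 h at any time in labelled knock-out libraries. Nfe2l2 was called higher in libraries labelled knock-out in the average over times (0.38 ± 0.07). In the list of ubiquitin genes, activating enzymes and shuttles, Ubb, a ubiquitin gene, changed by 1.55 ± 0.12 at 8 h in wild-type, the activating enzyme Uba1 by 1.5 ± 0.11 and the shuttle Ubqln2 by -0.93 ± 0.13. All 5 genes of class I peptide handling rose at 8 h in wild-type (30.3% of all genes). The peptide transporter gene Tap1 led (3.15 ± 0.21), with Tapbp at 2.77 ± 0.21, Tap2 at 2.56 ± 0.20 and B2m at 1.74 ± 0.16.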

How the data were processed

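RNA-seq of mouse bone marrow-derived macrophages was analysed from raw counts of fragments per gene in 23 libraries. The authors deposited these counts. Per the file headers they were made with featureCounts 2.0.1 on the Ensembl 101 annotation of GRCm38, strand was not used, and a fragment over several genes was counted for each. Reads were aligned with HISAT2 per the submitters' processing notes (its version is not given in the sources used here), and the notes also name DESeq2. Exons of 9 members overlap another gene: Psmb5 (12.1% of its exon bases), Psmb7 (11.8%), Psmd13 (10.1%), Psmc3 (8.25%), Psmd1 (7.61%), Psma4 (4.81%), Psma5 (4.54%), Psme1 (0.634%) and Psmd3 (0.342%), so their counts can hold fragments of both.

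Symbols came from GENCODE M21, which named 55141 of 55401 identifiers. No column was left unused. Genes were filtered with filterByExpr on the 8 groups, which kept 18083, and counts were scaled by TMM. Members are printed as TMM-scaled CPM, in the order of library numbers within a group. The main test was edgeR's quasi-likelihood test (edgeR 4.0.16, limma 3.58.1, R 4.3.3) with 1 fit over all 8 groups, Benjamini-Hochberg adjustment over all genes kept and a threshold of 0.05. Errors of log2 fold changes are standard errors. The 18 comparisons were each treated time against 0 h, 8 h against 4 h and 24 h against 8 h in each genotype, libraries labelled knock-out against wild-type by time and over all times, and the interaction of genotype and LPS. The fits were tested on simulated counts before use.

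Alternatives were RLE and upper-quartile scaling, no filter on low counts, DESeq2 1.42.0, a test against a fold of 1.5 (glmTreat), the library set as a term by time, the first library set alone, leaving out libraries 13, 16, 19 and 22, leaving out each library in turn, and a fit of only the groups compared. The members, the other gene lists, the library sets and the alternatives were chosen with earlier results of these data known. Values by library are given, in each role group, for the member with the highest and the lowest change at 8 h in wild-type, for every activator, Psmf1 and Pomp, for members called between genotypes, and for the members of largest and smallest range. Psmb3 was added because it tied with Psmb1. Group means were added for Psmb5, Psmc6 and Psmd8 after their values were seen. Genes that are no members are up to 4 called genes of a list by size of change, apart from a result that is not reported here.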

Additional observations from a re-analysis of the deposited data

How the results depend on the processing

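Groups held 2 or 3 libraries of similar depth, 4 libraries labelled knock-out had Selenow near the wild-type level, and the second library set deviated together. Over 18 comparisons and up to 32 settings each, 536 counts of called members stayed within 1.5 times the main count and 39 did not, and no gene result changed sign after being called. Of the 232 results for named genes in single comparisons, RLE scaling changed the call of 9, upper-quartile scaling of 13, DESeq2 of 11 and the unfiltered table of 7. Only upper-quartile scaling in the labelled knock-out at 24 h against 0 h moved the all-gene log2 median by more than 0.1 (-0.11). There 33 members were called higher and 1 lower, which was Psmd8 (-0.35, edgeR adjusted p 0.0132). No share of all genes is given for that fit, so these counts are not read as a trait of the members.

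A test against a fold of 1.5 gave 10 and 11 members in wild-type at 4 and 24 h against 0 h, 0 from 4 to 8 h and 4 from 8 to 24 h. In the labelled knock-out it gave 11, 19 and 14 at 4, 8 and 24 h, 0 from 4 to 8 h and 4 from 8 to 24 h. Between genotypes it gave 0 at 0, 4 and 24 h and 1 in the average. With the library set as a term, 28 members were called from 4 to 8 h in wild-type, 29 in the labelled knock-out and 19 there from 8 to 24 h (58.2%, 58.9% and 50.1% of all genes). Between genotypes that term gave 5, 2, 6 and 7 members at 0, 4, 8 and 24 h (13.6%, 4.66%, 16.2% and 19.5% of all genes), 10 in the average (6 higher and 4 lower, 23.9% of all genes), and in the interaction 3 at 8 h and 5 at 24 h (12.7% and 16.4%). The first library set alone gave 28 and 29 members from 4 to 8 h in wild-type and the labelled knock-out (56.4% and 56.5% of all genes), 2, 2, 3 and 2 between genotypes at the 4 times (6.56%, 3.69%, 14.5% and 5.46%), and 1 in the interaction at 8 h (Psmd1, 9.12%). The sets were found in these data, so those p-values may be too small. The unfiltered table gave 10 members in the labelled knock-out from 4 to 8 h. Without libraries 13, 16, 19 and 22, 7 were called there from 4 to 8 h, 5 from 8 to 24 h and 0 between genotypes at 24 h. A fit of only the groups compared called 0 members between genotypes at 0 h and 0 at 24 h. No share of all genes is given for the unfiltered table, for the fit without libraries 13, 16, 19 and 22 or for only the groups compared. The cause of these shifts was not tested.

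Leaving out each library in turn gave 11 to 21 members in the labelled knock-out from 4 to 8 h (lowest without library 18 or 21) and 6 to 12 from 8 to 24 h (lowest without library 22). Where a group was left with 1 library, that library was assumed to vary like the other groups. The corresponding ranges against 0 h were 26 to 30, 30 to 34 and 26 to 35 in wild-type and 26 to 31, 30 to 34 and 29 to 36 in the labelled knock-out at 4, 8 and 24 h. Between genotypes the count stayed at 1 at each time and 2 in the average, and in the interactions at 0. No share of all genes is given for these ranges. No paired analysis was possible because no replicate number of the labels occurs in more than 1 group. The library set used as a term was found in the data and is not a pairing that the labels give.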

Other observations

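The neighbourhood of Psmb4 was looked at after its values had been seen. Within 3 Mb on each side, 126 other genes were tested. In the average over the 4 times, edgeR's quasi-likelihood test called 0 of them between genotypes, against 8.75% of genes on chromosome 3. Psmd4, a ubiquitin receptor of the cap, lies 145.7 kb from Psmb4 and was not called there, whereas DESeq2 and the fit with the library set as a term called it higher in libraries labelled knock-out (0.09 and 0.10 on the log2 scale, adjusted p 0.0327 and 0.0304). Around Psmc1, 47 other genes were tested in the same span and 2 were called (Ptpn21 and Dglucy), against 5.32% of genes on chromosome 12.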
